A study of Mus musculus with 18 samples.

Results

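Heart muscle cells that had been selected from differentiating mouse embryonic stem cells were compared with the cells that a heart reporter had left unlabelled late in the same kind of differentiation. The 6 arrays used were the 2 of selected cardiomyocytes and the 4 of GFP-negative cells of days 7 and 8, out of 18 arrays in the series, and they were chosen by their titles. All cells came from the D3 line of mouse embryonic stem cells, which was made to differentiate in hanging drops into embryoid bodies (loose balls of cells) in medium with ascorbic acid. The GFP-negative cells came from cells that carried EGFP behind an enhancer of Nkx2-5 and a minimal hsp68 promoter, together with a hygromycin resistance gene, and were sorted by flow cytometry on days 7 and 8, in batches 1 and 2. The selected cardiomyocytes came from a separate stable clone in which the alpha myosin heavy chain promoter drove neomycin resistance, and were kept by treatment with the antibiotic G418. The labels give them no day and no batch. Clone, transgene, G418, sorting, day of culture and batch therefore cannot be told apart from the difference between the groups. Nothing in the labels tells whether the arrays of a group stem from different cultures, so the p-values rest on the spread between arrays of a group, which may be technical.

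Heart muscle contracts through sarcomeres, in which myosin thick filaments slide along actin thin filaments that are anchored at the Z-disc. Each beat starts when calcium enters through channels of the surface membrane, releases more calcium from the sarcoplasmic reticulum, and is pumped back. An embryoid body also forms primitive red cells, vessels, macrophages, endoderm and mesenchyme, and a sort for cells without GFP keeps any of these that do not use the Nkx2-5 enhancer. In RNA from mixed cells, fewer cells of a type and less RNA per cell cannot be told apart.

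Values are MAS5 signals, the linear brightness of a gene's probe set after the authors' scaling of every array to a common trimmed mean. Differences are given in log2 of the signal plus 6.8 units, an offset that understates the change of dim genes, as cardiomyocytes minus GFP-negative cells with the standard error (SE) of a limma fit. A gene was called where its adjusted p was under 0.05. The SE of a gene rests on its spread within all 9 groups of the series, 2 arrays each. GFP-negative signals are listed in the order day 7 batch 1, day 7 batch 2, day 8 batch 1 and day 8 batch 2. Array medians were 20.1 and 20.2 units in cardiomyocytes and 20.5 to 25.7 in GFP-negative cells. Gapdh, whose probe sets at both ends of the transcript show RNA quality, had a 3' to 5' signal ratio of 1.62 and 1.58 in cardiomyocytes and 1.36 to 1.55 in GFP-negative cells. The same ratio of Actb was 1.60 and 1.35 against 1.56 to 1.82, so the 2 genes differed in direction, and the part of RNA quality in the results was not tested.

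The gene that drove the selection was checked before all others. Myh6, the alpha myosin heavy chain of the adult mouse heart, had signals of 8122.3 and 7891.5 in cardiomyocytes against 753.7, 205.0, 466.4 and 189.7 in GFP-negative cells. Both cardiomyocyte arrays lay far above the sorted ones, and the sorted batches differed severalfold from each other. Myh6 rose by 4.52 ± 1.41 on the log2 scale (limma, adjusted p = 0.0185, n = 2 and 4 arrays), by 3.74 against batch 1 and 5.30 against batch 2. The call was lost without cardiomyocyte array 1 (adjusted p = 0.0923), without cardiomyocyte array 2 (0.0900), without the day 7 batch 2 array (0.0541) and against batch 1 alone (0.114). Since the selection used the Myh6 promoter, this height is part of how the cells were obtained. Nkx2-5, the homeobox factor whose enhancer drove GFP, was at 474.4 and 500.0 against 105.5, 75.5, 76.3 and 79.4. It rose by 2.45 ± 0.44 (adjusted p = 6.22e-04), with 2.35 against batch 1 and 2.55 against batch 2. The groups did not overlap, and the GFP-negative cells were not at the lowest signals of the array. Since the sort kept cells without GFP from this enhancer, their Nkx2-5 signal may depend on how they were obtained, which was not tested.

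The cardiomyocyte label was checked with 10 marker genes of heart muscle, among them Myh6, whose promoter drove the selection. All 10 were above every GFP-negative array in both cardiomyocyte arrays, and 8 were called higher. Without Myh6, 7 of 9 were called higher, and their summed signal was 42509.3 and 41460.2 in cardiomyocytes against 1297.8 to 4475.2 in GFP-negative cells. The summed signal of all 10 was 50631.6 and 49351.7 in cardiomyocytes and 1487.5 to 5228.9 in GFP-negative cells. The late GFP-positive cells, which were not part of the comparison, were between these at 10064.3 to 17404.1. Of 3 measured red cell markers, all embryonic globins, the sum was 21.3 and 29.5 in cardiomyocytes against 20545.4 to 23538.0 in GFP-negative cells. Markers of smooth muscle summed to 17583.8 and 16764.3 against 3765.4 to 6085.0, and those of epicardium to 3174.9 and 3277.5 against 185.8 to 851.6. Fibroblast markers summed to 16401.9 and 16075.0 against 3123.5 to 15674.6. Neuron markers summed to 417.5 and 451.7 against 45.8 to 63.4, nearly all of it from Tubb3. Those of stem cells, visceral endoderm and endothelium were below every GFP-negative array in sum, but only 1 of 4, 2 of 4 and 1 of 4 were called lower. Sox2, also a gene of neural progenitors, was at 224.2, 123.3, 371.8 and 135.2 in GFP-negative cells. The stem cell sum there was 274.5, 238.6, 460.1 and 235.3. The macrophage sum, at 521.2 and 563.0, lay within the GFP-negative range of 311.1 to 3414.3. Skeletal muscle markers summed to 85.8 and 81.4 against 26.3 to 54.5, with Myod1 at 10.5 and 11.5 and Myog at 8.6 and 10.5 in cardiomyocytes.

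**Figure D1:**
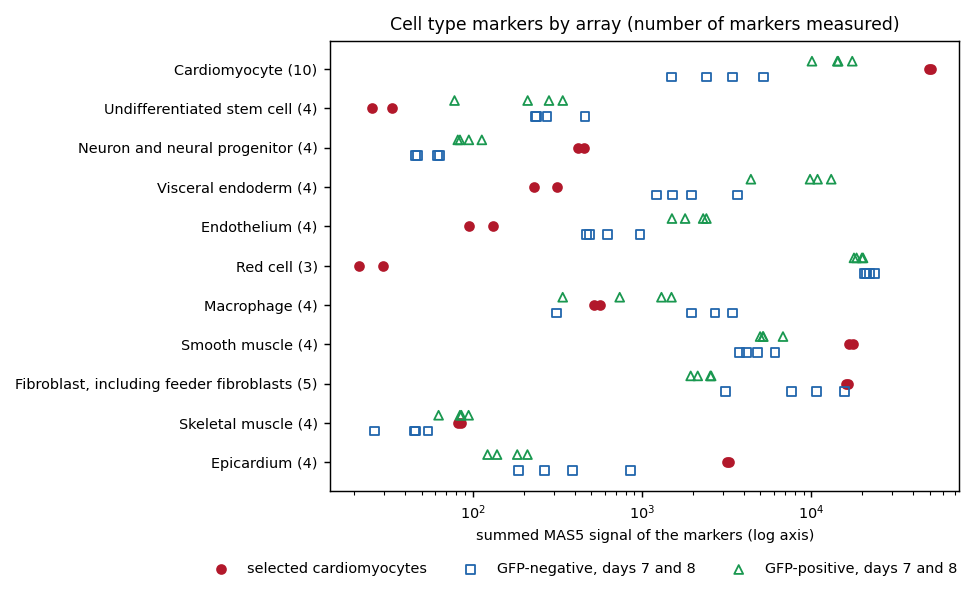
Summed MAS5 signal of cell type markers (log axis) on each array of selected cardiomyocytes (filled circles), late GFP-negative cells (squares) and late GFP-positive cells (triangles), with the number of markers measured in brackets. The cardiomyocyte arrays lie above all GFP-negative arrays for markers of heart muscle, neuron, smooth muscle, fibroblast, skeletal muscle and epicardium and lie at 21.3 and 29.5 units for red cell markers, where the 8 late sorted arrays lie between 17820.2 and 23538.0.

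Of 13379 genes tested, 6176 were called (46.2%), 2713 of them higher in cardiomyocytes (20.3%) and 3463 lower (25.9%). Both cardiomyocyte arrays were above all 4 GFP-negative arrays in 3700 genes (27.7%) and below them in 4519 (33.8%). The counts of list members given below are to be read against these shares. At least a 2-fold difference was reached by 1770 genes called higher and 1855 called lower, and at least 16-fold by 125 and 83. The median difference over all genes tested was -0.095. Leaving out cardiomyocyte array 1 lowered the count of genes called higher to 1778, and leaving out array 2 lowered it to 1801. Across genes, which are not independent replicates, the 2 cardiomyocyte arrays had r = 0.985 and 406 genes over 2-fold apart. GFP-negative arrays had r between 0.938 and 0.974 with each other, and between 0.792 and 0.842 with a cardiomyocyte array.

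**Figure D2:**
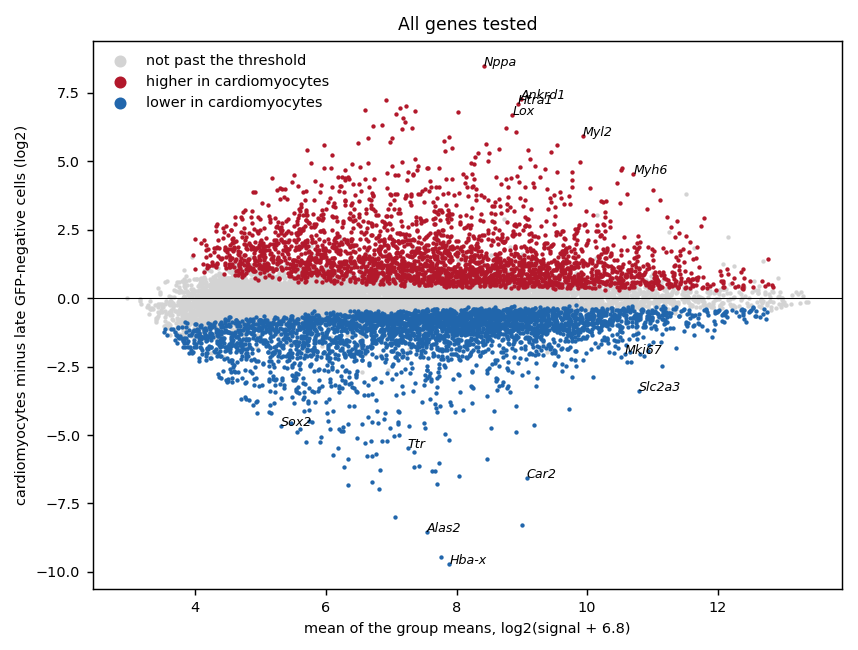
Difference between selected cardiomyocytes and late GFP-negative cells (log2 of signal plus 6.8) against the mean of the group means for the 13379 genes tested, with genes past an adjusted p of 0.05 in red (2713 higher) and blue (3463 lower). Nppa lies at the top at 8.49 and Hba-x at the bottom at -9.70.

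Promoter sequences of genes that differed most are shown because heart, smooth muscle and red cell genes are known to carry short motifs near their start that bind factors measured on these arrays. The stretches are the 250 bases before a transcript start in RefSeq (GRCm38.p6), the first one listed for each gene, read 5' to 3' on the gene's own strand. For Myh6, whose gene spans 54941921 to 54968017 on chromosome 14, that start lies inside the gene's span, and the stretch before its outermost start is not shown. Capitals mark every match, on either strand, to 5 motifs, and no printed match overlaps another. These are the CArG box, which binds serum response factor, the MEF2 site, GATAA, the core of GATA factor sites, CATTCC, the core of sites of TEAD factors, and CACACCC, a site of Klf1 and related factors. Myh6 is shown for its use in the selection, Nppa and Ankrd1 as the genes with the largest increases, Acta1 as the called skeletal actin, and Hba-x, Alas2 and Klf1 for the red cell genes.
Myh6, chr14:54966608-54966857, minus strand: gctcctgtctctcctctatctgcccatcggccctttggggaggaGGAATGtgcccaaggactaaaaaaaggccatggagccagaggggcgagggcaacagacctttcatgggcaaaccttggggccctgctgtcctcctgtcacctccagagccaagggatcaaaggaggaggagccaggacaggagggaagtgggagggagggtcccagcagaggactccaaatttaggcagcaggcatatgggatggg
Nppa, chr4:148000472-148000721, plus strand: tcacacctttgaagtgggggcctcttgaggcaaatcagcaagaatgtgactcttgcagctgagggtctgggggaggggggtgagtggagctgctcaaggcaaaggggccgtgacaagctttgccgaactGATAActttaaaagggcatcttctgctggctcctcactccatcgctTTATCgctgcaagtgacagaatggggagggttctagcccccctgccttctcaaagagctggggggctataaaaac
Ankrd1, chr19:36119845-36120094, minus strand: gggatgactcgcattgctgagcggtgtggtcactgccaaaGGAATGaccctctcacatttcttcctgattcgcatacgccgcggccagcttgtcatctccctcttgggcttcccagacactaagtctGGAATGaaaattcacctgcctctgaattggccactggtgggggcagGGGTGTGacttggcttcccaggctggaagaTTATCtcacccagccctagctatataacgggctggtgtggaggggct
Acta1, chr8:123894776-123895025, minus strand: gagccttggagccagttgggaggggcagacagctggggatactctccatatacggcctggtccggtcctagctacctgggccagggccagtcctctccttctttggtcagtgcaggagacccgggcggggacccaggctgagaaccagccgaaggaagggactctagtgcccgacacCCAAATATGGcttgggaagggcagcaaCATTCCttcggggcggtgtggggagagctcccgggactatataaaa
Hba-x, chr11:32276350-32276599, plus strand: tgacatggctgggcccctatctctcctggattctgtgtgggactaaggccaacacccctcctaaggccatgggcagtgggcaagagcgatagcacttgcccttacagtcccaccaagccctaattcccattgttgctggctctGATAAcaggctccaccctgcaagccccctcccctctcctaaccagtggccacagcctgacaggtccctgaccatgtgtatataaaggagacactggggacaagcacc
Alas2, chrX:150547167-150547416, plus strand: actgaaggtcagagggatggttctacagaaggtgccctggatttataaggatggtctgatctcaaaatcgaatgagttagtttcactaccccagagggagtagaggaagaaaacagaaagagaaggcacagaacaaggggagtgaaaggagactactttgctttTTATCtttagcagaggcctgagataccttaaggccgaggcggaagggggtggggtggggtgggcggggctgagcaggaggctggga
Klf1, chr8:84901732-84901981, plus strand: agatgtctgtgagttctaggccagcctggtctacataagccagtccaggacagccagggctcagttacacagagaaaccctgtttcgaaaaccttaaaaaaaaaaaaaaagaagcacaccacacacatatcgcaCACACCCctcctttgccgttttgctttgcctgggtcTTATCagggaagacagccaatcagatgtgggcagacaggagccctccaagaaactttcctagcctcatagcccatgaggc

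The Acta1 stretch held a CArG box at -73 to -64 and CATTCC at -46 to -41 before the start, and the Ankrd1 stretch held CATTCC at -210 to -205 and at -123 to -118. Nppa held GATAA at -121 to -117 and, on the other strand, at -75 to -71. Hba-x, Alas2 and Klf1 each held GATAA, at -107 to -103, -86 to -82 and -80 to -76. Of the 40 sarcomere genes called higher, 35 had a promoter in the table. A CArG box stood in 17.1% of these, a MEF2 site in 14.3%, GATAA in 37.1% and CATTCC in 31.4%. The shares among all 27025 genes with a promoter were 1.4%, 3.0%, 23.0% and 12.6%. Of the 13 red cell and platelet genes called lower, 10 had a promoter, and 60.0% of those held GATAA, 20.0% CACACCC and 0.0% a CArG box, where CACACCC stood in 6.8% of all promoters. These shares describe letters in a short window and were not tested.

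The largest increases were a mixture of heart muscle genes and genes of secreted and matrix proteins. Nppa, the atrial natriuretic peptide, had signals of 6446.5 and 6508.4 in cardiomyocytes against 16.9, 4.3, 15.1 and 11.8 in GFP-negative cells. All 4 sorted values lay below 22.5, the median of all values, while both cardiomyocyte values were close to each other. It rose by 8.49 ± 0.32 (adjusted p = 6.26e-09), by 8.15 against batch 1 and 8.82 against batch 2. In late GFP-positive cells Nppa was also dim, at 21.2, 7.8, 32.6 and 36.3. Ankrd1, a stress-responsive protein of the Z-disc and nucleus, was at 6404.8 and 6087.2 against 57.5, 22.8, 32.3 and 30.7 and rose by 7.26 ± 0.30. Smpx, a small muscle protein, was at 1718.3 and 1669.6 against 15.9, 0.4, 6.0 and 7.3, and Myoz2, a calsarcin that tethers calcineurin to the Z-disc, at 1504.1 and 1606.0 against 3.3, 7.8, 4.5 and 8.4. They rose by 7.02 ± 0.53 and 6.95 ± 0.35. Mb, the oxygen carrier myoglobin, differed between the cardiomyocyte arrays, at 1440.1 and 742.0, and was at 3.4, 1.3, 2.5 and 1.5 in GFP-negative cells. Nppb, the B-type natriuretic peptide, rose by 6.8 ± 0.49 and Trdn, triadin of the calcium release complex, by 6.32 ± 0.46.

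Secreted and matrix genes stood among the same 15 largest increases. Htra1, a secreted serine protease, was at 5696.9 and 5738.5 against 44.9, 36.4, 56.7 and 15.2 and rose by 7.09 ± 0.38 (adjusted p = 1.04e-07). Lox, the enzyme that crosslinks collagen and elastin, was at 4826.6 and 4487.4 against 23.2, 13.6, 142.1 and 41.8 and rose by 6.67 ± 0.48. Its highest sorted value was the day 8 batch 1 array, still far below the cardiomyocytes. Aldh1a1, a retinaldehyde dehydrogenase, rose by 7.23 ± 0.29, from 2.9, 2.0, 1.8 and 6.4 in GFP-negative cells to 1464.4 and 1509.2. Col8a1, a short-chain collagen, rose by 6.83, Cemip, a protein of hyaluronan breakdown, by 6.70, Serpina3n, a serine protease inhibitor, by 6.58 and Efemp1, a fibulin, by 6.43. Osmr, a receptor subunit for oncostatin M, rose by 6.29. None of these was a member of a heart muscle list, and the late GFP-positive arrays were low as well in Htra1, at 44.1 to 108.6, in Lox, at 7.4 to 66.4, and in Aldh1a1, at 1.6 to 18.5.

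**Figure D3:**
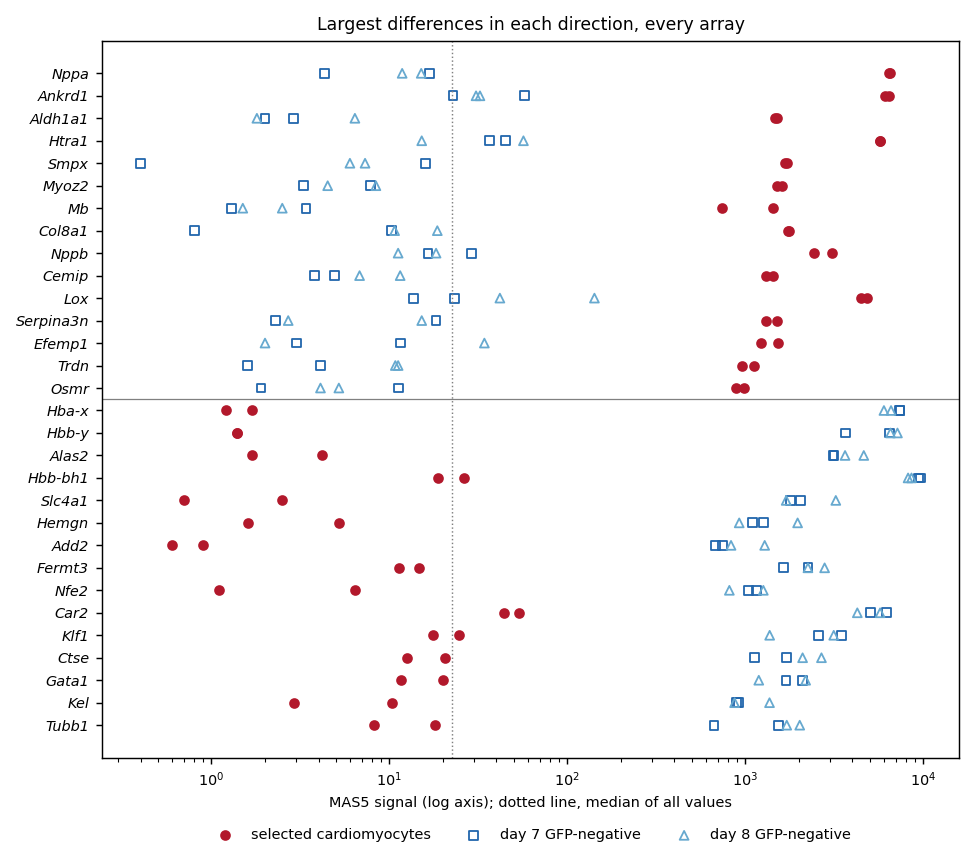
MAS5 signal (log axis) on every array for the 15 genes with the largest increases (above the line) and the 15 with the largest decreases (below the line) among called genes whose arrays do not overlap. Filled circles are cardiomyocytes and open symbols GFP-negative cells of day 7 (squares) and day 8 (triangles), and for each gene both circles lie on one side of all open symbols. The dotted line is the floor of 22.5 units.

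Thick filament and M-band genes rose nearly throughout. Of 13 tested, 11 were called higher and 1 lower, with a median of 3.37 (2.90 against batch 1, 4.11 against batch 2). Myl2, the ventricular regulatory light chain, was at 7702.9 and 7504.0 against 233.4, 126.1, 109.7 and 59.6, without overlap. It rose by 5.92 ± 1.26 (adjusted p = 0.00194). Myl3, the ventricular essential light chain, was at 7723.2 and 7683.3 against 603.4, 220.7, 341.5 and 132.0 and rose by 4.75 ± 1.41. Myl4, its atrial counterpart, rose by 3.96 and Mybpc3, the cardiac myosin binding protein, by 4.61. Myh7b, a slow tonic myosin gene, ran the other way at 30.0 and 23.0 against 204.8, 224.3, 181.9 and 307.2, and fell by 2.81 ± 0.58 (adjusted p = 0.00163). Myh7, the beta heavy chain of the fetal mouse ventricle, was at 3322.9 and 3136.6 against 674.8, 257.9, 579.4 and 231.1. Its arrays did not overlap, but its difference of 3.02 ± 1.43 did not pass (adjusted p = 0.103). It passed with batch as a block (adjusted p = 0.0148) and with the 6 arrays fitted alone (0.00252). Without either cardiomyocyte array the count of genes called higher was 7, and Myl3 (adjusted p = 0.0779 without array 1, 0.0775 without array 2) and Myl4 (0.0576 and 0.0655) lost their calls.

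In the thin filament, 8 of 12 genes tested were called higher and 0 lower, and the median was 3.31 (3.04 and 3.55 against batches 1 and 2). Tnni3, the adult cardiac troponin I that inhibits the filament, was at 1977.1 and 1730.0 against 59.4, 41.6, 52.3 and 33.6 and rose by 5.14 ± 0.62 (adjusted p = 3.38e-05). Lmod2, a nucleator of actin filaments, rose by 4.94 ± 0.34 from 2.2, 5.3, 3.5 and 1.7 to 309.1 and 283.3. Acta1, the skeletal actin that the fetal heart also uses, was at 1916.0 and 2010.0 against 206.0, 54.3, 141.9 and 36.8, with the batch 1 arrays above the batch 2 arrays. It rose by 4.36 ± 0.69. Tnnc1, the calcium sensor troponin C, rose by 3.57 ± 0.94, a call lost without cardiomyocyte array 2 (adjusted p = 0.0527). The cardiac actin Actc1 was already high in GFP-negative cells, at 3792.9, 1815.6, 2251.3 and 1244.6 against 10081.4 and 9551.8. Its difference of 2.22 ± 1.13 did not pass (adjusted p = 0.126, and 0.0183 with batch as a block), nor did Tnnt2, cardiac troponin T, at 3.80 ± 1.88 (0.118, and 0.0311 with the block). Tnni1, the fetal troponin I, had a difference of 2.42 ± 1.43 (0.189). With the 6 arrays fitted alone Actc1, Tnnt2 and Tnni1 had adjusted p = 0.00244, 5.76e-04 and 5.64e-04, and in all 3 both cardiomyocyte arrays were above every GFP-negative array.

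Z-disc and muscle chaperone genes were called higher in 21 of 21 tested, with a median of 3.85 (3.88 and 3.97 against batches 1 and 2). Actn2, the alpha-actinin that crosslinks thin filaments, was at 3626.2 and 3838.5 against 78.1, 24.6, 58.2 and 29.8 and rose by 6.22 ± 0.66 (adjusted p = 1.28e-05). Csrp3, the muscle LIM protein, was at 5427.4 and 4885.8 against 169.9, 82.8, 126.4 and 53.6 and rose by 5.60 ± 0.88. Synpo2l and Ldb3, which bind alpha-actinin, rose by 5.88 and 5.30. The smallest member difference was 0.86, in the co-chaperone gene Bag3. All 21 had both cardiomyocyte arrays above the 4 GFP-negative arrays.

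Calcium cycling followed, with 14 of 15 genes called higher, 0 lower and a median of 3.59 (3.29 and 3.73 against batches 1 and 2). Pln, phospholamban, which brakes the calcium pump, was at 1809.7 and 1458.5 against 22, 26.5, 20.3 and 27.9 and rose by 5.73 ± 0.44 (adjusted p = 1.11e-06). The pump itself, Atp2a2, was at 4298.5 and 4181.1 against 2406.6, 2360.2, 2142.8 and 2122.2, a much smaller step of 0.91 ± 0.11. With its dimmest passing probe set the step of Atp2a2 was 1.74. Ryr2, the calcium release channel, was at 452.9 and 479.8 against 18.4, 25.5, 44.7 and 25.6 and rose by 3.79 ± 0.77. The calcium stores Casq2 and Casq1 rose by 4.09 and 3.89. Slc8a1, the sodium-calcium exchanger, rose by 4.91, although with its dimmest passing probe set in place of the one used the value was 0.53. Fkbp1b, a ryanodine receptor partner, was the member not called, at -0.60.

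Among ion channels, 9 of 16 tested were called higher, 0 lower, and the median was 1.39 (1.09 and 1.89 against batches 1 and 2). Cacna1c, the pore of the L-type calcium channel, was at 184.7 and 198.7 against 8.2, 10.2, 25.2 and 16.3 and rose by 3.25 ± 0.36. Its partners Cacnb2 and Cacna2d1 rose by 3.06 and 2.38, and Cacna1g, a T-type channel, by 2.39. The subunits of the slow delayed rectifier rose together: Kcnq1 was at 80.1 and 81.4 against 4.4, 6.9, 4.6 and 2.1, and Kcne1 at 82.7 and 70.2 against 1.7, 0.5, 6.4 and 0.9, without overlap in either. Their differences were 2.97 ± 0.44 and 3.22 ± 0.45. Kcne1 and Cacna1g were under the floor on every late sorted array, so their lack of overlap may follow from the floor. The remaining 7 of the 16 were not called.

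At the intercalated disc, where heart cells are joined, 9 of 13 genes were called higher and 1 lower, with a median of 1.56 (1.42 and 1.70 against batches 1 and 2). Popdc2, a membrane protein that binds cyclic AMP, was at 2792.2 and 3022.1 against 240.0, 148.6, 226.7 and 175.7 and rose by 3.86 ± 0.59. Cdh2, N-cadherin, rose by 2.96 and Gja1, connexin 43, by 1.67 ± 0.29, the latter from 751.1, 610.8, 875.1 and 535.0 to 2096.2 and 2273.5. Pkp2, a desmosome plaque protein, rose by 1.75, but only 0.07 was measured with its dimmest passing probe set. Dsc2, a desmosomal cadherin of epithelia and heart, was at 95.4 and 99.3 against 350.7, 133.1, 708.6 and 330.3 and fell by 1.67 ± 0.53. That call was lost without either cardiomyocyte array (adjusted p = 0.102 and 0.0928), without day 7 batch 1 (0.0634) or without day 8 batch 1 (0.0590).

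Cardiac transcription factors showed a mixed pattern: 9 of 25 were called higher and 1 lower, and the median was 0.67 (0.41 and 0.85 against batches 1 and 2). Besides Nkx2-5, Hopx, a homeodomain protein without DNA binding, was at 2495.3 and 2401.5 against 268.3, 159.8, 211.6 and 132.9 and rose by 3.67 ± 0.39. Tbx20 and Gata4, factors of early and later heart development, rose by 2.53 ± 0.37 and 2.50 ± 0.38. Gata4 was at 539.0 and 494.0 against 109.6, 71.0, 114.9 and 59.2. Myocd, the serum response factor coactivator myocardin, rose by 2.75 ± 0.80 and Irx4, a ventricular factor, by 1.55 ± 0.44. Both calls were lost without cardiomyocyte array 1 (adjusted p = 0.0735 and 0.0510) or array 2 (0.0712 and 0.0872). Hand1, a factor of the early left ventricle and of extraembryonic mesoderm, was at 40.9 and 28.6 against 116.3, 61.4, 90.6 and 70.8 and fell by 1.12 ± 0.34, without a call when cardiomyocyte array 2 was left out (adjusted p = 0.145), while 2 factors were called lower without day 8 batch 2. Tbx5, Gata6, Hand2, Mef2c and Isl1 were not called, at 2.14, 0.38, 0.92, -0.14 and -0.97.

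Genes that separate heart chambers did not fall on one side. Of 20 chamber and pacemaker genes, 10 were called higher and 0 lower (median 1.26, with 1.0 and 1.6 against batches 1 and 2), and these included genes known from the atrium (Nppa, Sln, Myl4, Myl7) and from the ventricle (Myl2, Myl3, Irx4). Sln, sarcolipin, was at 167.4 and 119.5 against 2.8, 5.1, 2.1 and 9.6 and rose by 3.71 ± 0.43. Myl7, the atrial regulatory light chain, was at 6196.0 and 6067.1 against 2056.5, 1053.0, 1094.0 and 445.5 and rose by 2.59 ± 0.62. Tbx18, a factor of the sinus horn and epicardium, rose by 4.50 ± 0.39, while the pacemaker factors Shox2, Tbx3 and Isl1 were not called, at 1.10, 0.29 and -0.97.

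All 7 tested genes of natriuretic peptides and energy buffers were called higher, with a median of 3.01. Beside Nppa, Nppb and Mb, Ak1, an adenylate kinase of muscle, rose by 3.01 ± 0.24 and Ckmt2, the sarcomeric mitochondrial creatine kinase, by 1.80 ± 0.30. Ckb, the brain creatine kinase, was at 1597.3 and 1580.5 against 607.0, 222.5, 800.2 and 578.2, and its rise of 1.65 ± 0.56 was lost without cardiomyocyte array 1 (adjusted p = 0.118), array 2 (0.116), day 7 batch 2 (0.0874) or day 8 batch 2 (0.0665). Ckm did not reach the floor. Of 19 receptors and signalling enzymes of heart rate and growth, 8 were tested, 3 were called higher and 1 lower. Adcy5, the adenylyl cyclase of heart and brain, was at 145.7 and 128.3 against 14.5, 14.0, 16.9 and 16.6 and rose by 2.69 ± 0.38, the single gene of the list still called higher without cardiomyocyte array 1, array 2 or day 7 batch 2.

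Pairs of isoforms were compared where one form is known from heart or striated muscle and the other from other tissues, fetal muscle or another chamber. Both forms were tested in 15 of 20 pairs, and the form named first had the larger difference in 13. The difference between forms was not tested. In phosphoglycerate mutase, Pgam2 was at 2373.3 and 2153.8 against 104.4, 61.0, 48.6 and 18.9 and rose by 5.31 ± 0.85, while Pgam1 was at 3479.7 and 3492.8 against 4475.3, 5299.0, 3617.5 and 4276.1, a difference of -0.33 (adjusted p = 0.0847, and 0.0230 with batch as a block). The calcium pumps parted as well, with Atp2a2 at 0.91 and Atp2a3, the pump of blood and vessel cells, at 24.0 and 40.3 against 305.3, 165.5, 350.1 and 372.6, a fall of 2.94 ± 0.45. Cox6a2 and Cox7a1, the heart and muscle forms of cytochrome oxidase subunits, rose by 2.95 and 1.94, against 0.42 for Cox6a1 and 0.43 (not called) for Cox7a2. The exceptions were Actc1 and Acta1, at 2.22 and 4.36, and the hexokinases, where Hk2, the form of insulin-responsive tissue, fell by 1.11 ± 0.16 and Hk1 was at -0.15 (not called).

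**Figure D4:**
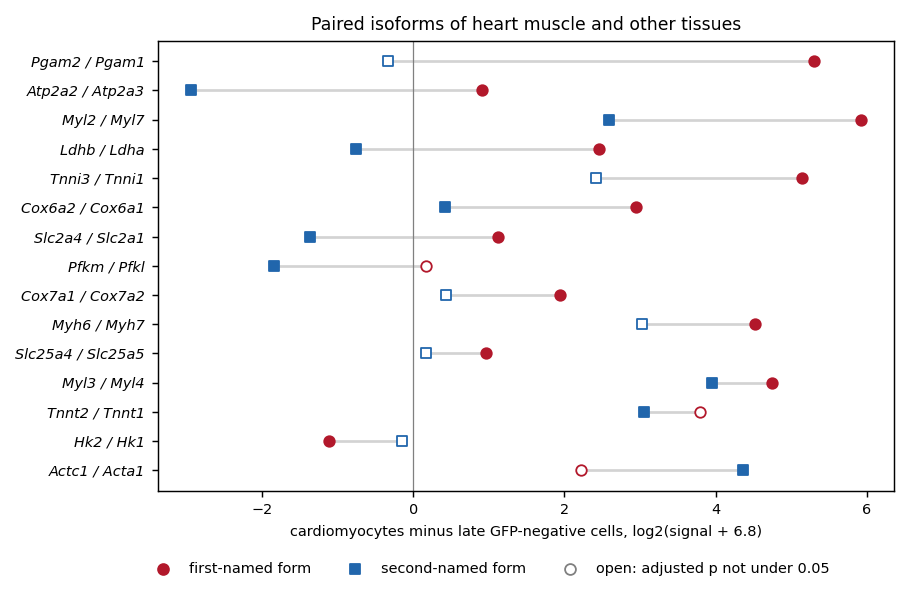
Difference between selected cardiomyocytes and late GFP-negative cells (log2 of signal plus 6.8) for the 15 isoform pairs with both forms tested, first-named form as circles and second-named as squares, filled where adjusted p was under 0.05. The first-named form lies to the right in 13 pairs, and the widest gap is Pgam2 at 5.31 against Pgam1 at -0.33.

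Genes of fatty acid oxidation rose and several genes of glycolysis fell. Of 22 fatty acid oxidation genes, 16 were called higher and 0 lower, with a median of 1.14 (0.87 and 1.27 against batches 1 and 2). Ppargc1a, a coactivator of mitochondrial genes, was at 367.0 and 333.6 against 36.8, 16.4, 44.2 and 8.1 and rose by 3.59 ± 0.67. Cpt1a, which passes fatty acids into mitochondria, rose by 3.40 ± 0.35. It is not the muscle form of its isoform pair, and the muscle form, Cpt1b, was not measured. Acadl, the long-chain dehydrogenase, rose by 2.69 ± 0.25, from 424.6, 289.4, 489.6 and 375.7 to 2638.8 and 2454.7. Without cardiomyocyte array 1 the count was 10. Of 30 respiratory chain and citrate cycle genes, 22 were called higher and 0 lower, but the median was 0.49 and most differences were small. Ogdh, of the oxoglutarate dehydrogenase complex, rose by 1.51 ± 0.17, though its dimmest passing probe set gave 0.44 without a call (adjusted p = 0.412), and Sdhb, an iron-sulphur subunit of complex II, by 1.01 ± 0.13, from 2020.4, 2119.1, 1853.7 and 1628.8 to 3655.5 and 4003.9. The count was 10 with array medians set equal, 14 without cardiomyocyte array 1, 13 against day 7 alone and 14 against batch 2 alone.

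Of 20 genes of glycolysis and glucose uptake, 10 were called lower and 4 higher, and the median was -0.54 (-0.47 and -0.54 against batches 1 and 2). Slc2a3, a high-affinity glucose transporter, was at 568.9 and 507.5 against 6052.8, 5989.2, 5040.5 and 6084.0 and fell by 3.41 ± 0.16 (adjusted p = 2.43e-08). Slc2a1 fell by 1.36 ± 0.19 and Slc2a4, the insulin-responsive transporter of muscle, rose by 1.12 ± 0.23, at 0.07 with its dimmest passing probe set. Pdk1, the kinase that closes pyruvate dehydrogenase, was at 349.0 and 354.1 against 1389.3, 1948.5, 1213.4 and 1811.8 and fell by 2.13 ± 0.34. Pfkl, the liver phosphofructokinase, fell by 1.84 ± 0.16. The 4 called higher were the muscle and heart forms Pgam2, Eno3, Ldhb and Slc2a4. Ldhb was at 2802.7 and 2457.5 against 524.9, 401.5, 680.3 and 346.4 and rose by 2.46 ± 0.40, while Ldha fell by 0.76 ± 0.16.

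Red cell genes gave the largest decreases, and all 13 tested genes of red cells and platelets were called lower, with a median of -6.30 (-6.01 and -6.59 against batches 1 and 2). Hba-x, the embryonic zeta globin, was at 1.2 and 1.7 in cardiomyocytes against 7383.9, 7414.9, 6024.3 and 6604.6 in GFP-negative cells. It fell by 9.70 ± 2.12 (adjusted p = 0.00234). Hbb-y and Hbb-bh1, the embryonic beta-like globins, were at 1.4 and 1.4 and at 18.7 and 26.4 in cardiomyocytes, against 3674.0 to 7176.4 and 8237.1 to 9660.0. Related globin genes can share probes, so the signal of each is uncertain. Alas2, the enzyme that starts haem synthesis in red cells, was at 4.2 and 1.7 against 3153.7, 3114.1, 3642.4 and 4641.0 and fell by 8.54 ± 1.32. Klf1 and Gata1, the factors that direct red cell genes, had differences of -6.5 ± 1.23 and -6.30 ± 0.72, and Gata1 was at 20.0 and 11.6 against 1696.8, 2093.2, 1192.5 and 2186.9. Slc4a1, the anion exchanger of the red cell membrane, fell by 7.99. Car2, a carbonic anhydrase, fell by 6.57 ± 0.19, and Tubb1, the tubulin of platelets, fell by 6.16. Hba-x and Alas2 were also high in late GFP-positive cells, at 6049.3 to 6915.3 and 1729.2 to 1996.2.

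Genes of some other cell types that embryoid bodies hold were lower as well. Of 22 endothelial genes, 11 were called lower and 2 higher, with a median of -1.85 (-2.0 and -1.50 against batches 1 and 2). Kdr, the main receptor for vascular growth factor, was at 53 and 73.8 against 504.0, 338.5, 820.1 and 374.6 and fell by 2.81 ± 0.38. Cldn5, the claudin of vessel junctions, fell by 3.39, Vwf, the von Willebrand factor, by 3.29 and Sox18, a factor of vessels, by 3.15. Pecam1 and Tie1 were below every GFP-negative array without a call, at -1.15 (adjusted p = 0.0529) and -1.80 (0.0698), and both passed with batch as a block (0.0417 and 0.0333). Ptprb, a phosphatase of vessel junctions, ran the other way at 239.3 and 268.0 against 44.5, 37.4, 36.1 and 15.2, a rise of 2.77 ± 0.39, as did Eng, a receptor for transforming growth factor beta, at 1.48 ± 0.21. Late GFP-positive cells were above every GFP-negative array in Kdr, at 1195.0 to 1852.1, in Cldn5, at 434.5 to 781.1, and in Sox18, at 543.0 to 761.0. Vwf overlapped, at 40.2 to 382.5 in GFP-positive cells. The count called lower was 6 without cardiomyocyte array 1 and 7 without array 2, day 7 batch 2 or day 8 batch 1.

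Macrophage genes varied among the GFP-negative arrays themselves. Of 14, 7 were called lower and 0 higher, with a median of -1.74 that was -0.65 against day 7 and -2.50 against day 8. Tyrobp, a signalling adaptor of myeloid cells, was at 37.9 and 27.6 against 546.3, 142.6, 674.6 and 775.3, with the day 7 batch 2 array lowest of the sorted ones. It fell by 3.55 ± 0.67. Spi1, the factor of myeloid cells, fell by 2.21 ± 0.35, without overlap. Csf1r, the receptor of the macrophage growth factor, was at 321.6 and 394.4 against 1493.9, 188.2, 2715.9 and 1978.1, so the groups overlapped, and its difference was -1.63 (adjusted p = 0.146, and 0.0318 with batch as a block). The markers Cd68 and Lyz2 overlapped too, at 0.01 and -0.0042, and their signs changed with the setting. The count called lower was 3 without cardiomyocyte array 2 and 3 against day 7 alone.

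Of 18 endoderm genes, 8 were called lower, 0 higher and 10 not called, with a median of -1.27 (-1.57 and -1.13 against batches 1 and 2). Rbp4, the retinol carrier, was at 19.8 and 22.3 against 730.5, 613.4, 691.0 and 664.2 and fell by 4.61 ± 0.89 (adjusted p = 0.00102). Foxa1, a pioneer factor of endoderm, fell by 3.21 ± 0.66. Ttr, transthyretin, was at 18.0 and 14.1 against 1102.8, 922.1, 1103.9 and 936.4, and its difference of -5.48 ± 1.56 lost its call without cardiomyocyte array 1 (adjusted p = 0.0609) or array 2 (0.0716), as the count fell to 4 without either array. Foxa2 was at 44.9 and 36.7 against 78.4, 115.4, 130.3 and 73.4, a difference of -1.13 (adjusted p = 0.0502, and 0.0440 with batch as a block). The epithelial adhesion genes Epcam and Cdh1 fell by 3.19 ± 0.50 and 2.92 ± 0.61, and Cldn6 and Esrp1 by 3.20 and 3.22. In the same list the basement membrane genes rose: Col4a1 was at 5657.0 and 6274.1 against 918.5, 393.5, 1041.2 and 381.1, a rise of 3.26 ± 0.40, and Col4a2 rose by 3.76 ± 0.44, so that 7 of 15 were called higher and 6 lower. Late GFP-positive cells were above every GFP-negative array in Ttr, at 3563.5 to 6804.1, and in Rbp4, at 2166.7 to 6084.9. This was also so in Epcam, at 472.6 to 1947.5, and in Cldn6, at 485.4 to 1656.8. Foxa1 and Cdh1 overlapped, at 193.2 to 775.3 and 142.4 to 664.0 in GFP-positive cells.

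Of 20 pluripotency genes, 8 were called lower (40.0%, against 25.9% of all genes tested) and 1 higher (5.0%, against 20.3%). The median was -1.0 (-0.92 and -1.12 against batches 1 and 2). Sox2, a factor of stem cells and neural progenitors, was at 0.6 and 1.7 against 224.2, 123.3, 371.8 and 135.2 and fell by 4.66 ± 0.52 (adjusted p = 1.80e-05). Lin28a, an RNA-binding protein that blocks let-7, was at 9.2 and 1.6 against 297.8, 409.1, 211.2 and 174.2 and fell by 4.52 ± 0.37. Pou5f1 was at 5.6 and 1.7 against 27.9, 49.9, 36.4 and 45.6, and its difference of -2.16 did not pass (adjusted p = 0.0511, and 0.0183 with batch as a block). Klf4, also a factor of differentiated epithelium and vessel wall, rose by 2.10 ± 0.27, from 87.6, 97.9, 112.3 and 82.1 to 403.9 and 452.8. Of 11 primitive streak genes 0 were called in limma (0 to 2 over the alternatives, and 0 at an unadjusted p under 0.05). In 4 of the 11 both cardiomyocyte arrays were below all GFP-negative arrays, near the share of 33.8% among all genes tested.

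Of 15 neural genes, 3 were called higher (20.0%, against 20.3% of all genes tested) and 4 lower (26.7%, against 25.9%), shares near those of all genes. Otx2, a homeobox factor of the forebrain and early epiblast, was at 0.4 and 0.5 against 118.7, 155.3, 151.5 and 85.9 and fell by 4.18 ± 0.57. Tubb3, the tubulin known from neurons, was at 388.7 and 425.1 against 20.1, 26.2, 19 and 9.6 and rose by 4.06 ± 0.42, and Ncam1, an adhesion molecule of nerve and muscle, rose by 2.82 ± 0.49, although its dimmest passing probe set gave -0.67. Sox1 and Map2 did not reach the floor. Of 17 Hox genes, 6 were called lower (35.3%, against 25.9% of all genes tested) and 0 higher (against 20.3%). The median was -1.41 (-1.72 and -1.10 against batches 1 and 2). Hoxa9 was at 0.9 and 2.0 against 172.9, 89.1, 269.7 and 95.0 and fell by 4.17 ± 0.64, though by 0.10 with its dimmest passing probe set. Hoxc10 was at 0.7 and 1.3 against 67.4, 27.9, 114.8 and 48.2 and fell by 3.05 ± 0.41. The other four called lower were Hoxd9, Hoxa10, Hoxc4 and Hoxc9, at -2.01, -1.86, -1.77 and -1.41. The Hox count was 3 without either cardiomyocyte array and 10 with the 6 arrays fitted alone.

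Genes of DNA replication and mitosis were lower nearly throughout, with 20 of 22 called lower, 0 higher and a median of -1.77 (-1.60 and -1.90 against batches 1 and 2). Birc5, survivin of the dividing chromosome, was at 202.7 and 208.1 against 1447.9, 1468.2, 1225.7 and 1424.6 and fell by 2.72 ± 0.13 (adjusted p = 3.39e-08). Mcm5 and Mcm6, subunits of the replication helicase, had differences of -2.36 ± 0.23 and -2.27 ± 0.18, both called. Mki67, a protein of cycling cells, was at 738.7 and 745.6 against 3261.1, 3440.1, 2351.0 and 3451.6 and fell by 2.05 ± 0.18, so its signal was still well above the floor. Ccne1 and Rrm2 were not called. Among 14 cell cycle inhibitors and p53 targets, 6 were called higher (42.9%, against 20.3% of all genes tested) and 2 lower (14.3%, against 25.9%). Ccnd2, cyclin D2, is not an inhibitor but was counted among those called higher in this list. It was at 6285.9 and 6625.3 against 1528.0, 1036.8, 1532.5 and 1257.2 and rose by 2.28 ± 0.21, the largest difference of the list. Rb1, the retinoblastoma gene, had the lowest difference of the list, at -1.58. It was called lower, though not against day 7 alone (limma, adjusted p = 0.0997). Cdkn1a, the inhibitor p21, was at 3912.3 and 4492.9 against 1474.2, 1145.3, 1242.5 and 1434.3, and its rise of 1.67 ± 0.54 lost its call without cardiomyocyte array 1 (adjusted p = 0.0838), array 2 (0.123) or day 7 batch 2 (0.0543). The count called higher was 2 without cardiomyocyte array 2, and that called lower was 1 without either cardiomyocyte array.

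**Figure D5:**
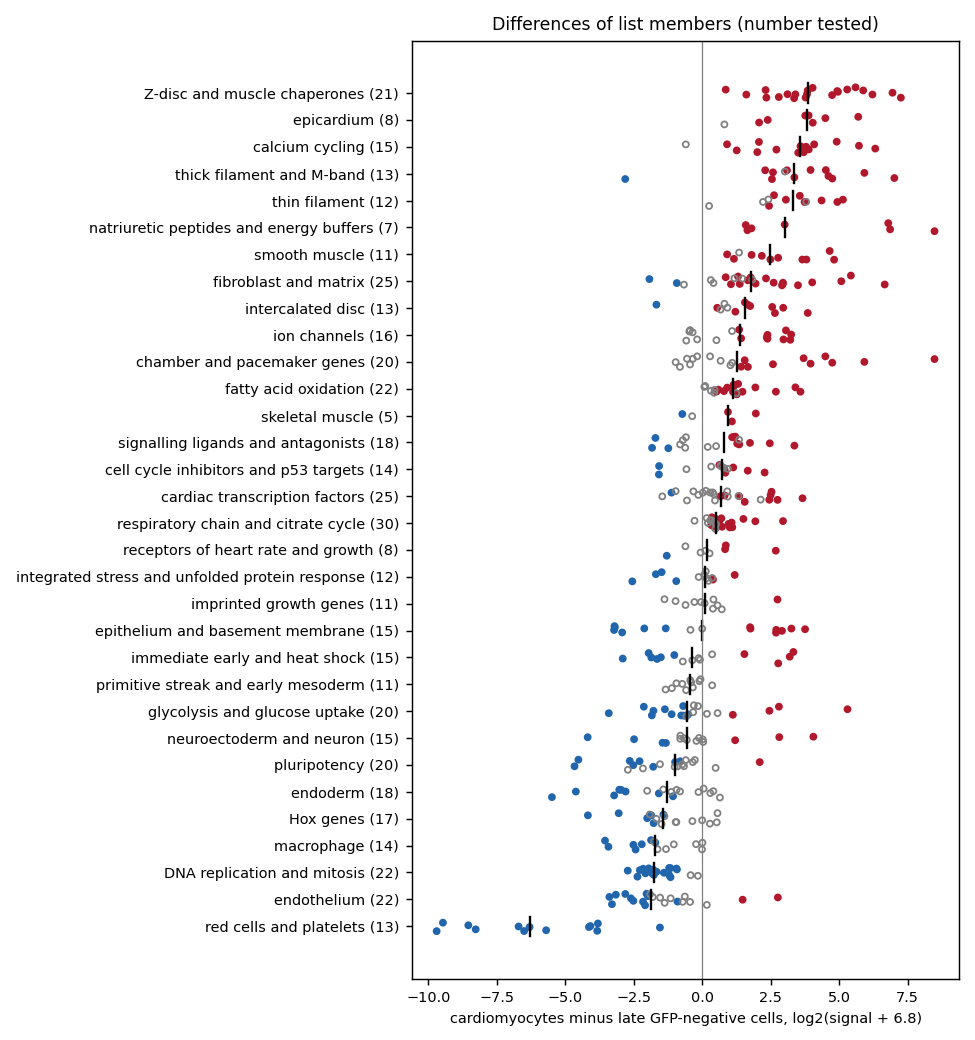
Difference between selected cardiomyocytes and late GFP-negative cells (log2 of signal plus 6.8) for each tested member of 32 gene lists, in order of list median (black bar), with members called higher in red, called lower in blue and not called as open circles. Z-disc genes lie at the top with a median of 3.85 and red cell genes at the bottom with -6.30.

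Genes of other mesenchymal cells rose together with the heart genes. Of 11 smooth muscle genes, 10 were called higher and 0 lower, with a median of 2.49 (2.50 and 2.48 against batches 1 and 2). Myl9, a smooth muscle regulatory light chain, was at 7385.4 and 7291.4 against 427.6, 184.1, 386.8 and 213.0 and rose by 4.66 ± 0.47. Tagln, transgelin, which early heart muscle also expresses, rose by 3.81 ± 0.42 and Actg2, the enteric actin, by 4.82 ± 0.38. Myh11, the smooth muscle myosin, was dim at 54.5 and 43.2 against 0.5, 6.1, 6.3 and 0.8 and rose by 2.49 ± 0.35. Acta2 was not called, at 10885.9 and 10267.0 against 5306.3, 3789.0, 4199.8 and 3493.6 (1.35 ± 0.76, adjusted p = 0.168), but passed with the 6 arrays fitted alone (0.00103). It also passed with its dimmest passing probe set, at 2.94 (adjusted p = 1.33e-05), and with the mean of its probe sets, at 1.62 (4.75e-04). The part that smooth muscle cells or smooth muscle genes in young heart cells had in these values was not tested.

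Of 25 fibroblast and matrix genes, 17 were called higher and 2 lower, with a median of 1.77 that was 1.16 against batch 1 and 2.54 against batch 2. Fbln2, a fibulin, was at 2448.8 and 2861.3 against 60.8, 33.1, 105.3 and 40.4 and rose by 5.43 ± 0.67. Ccn2, the connective tissue growth factor, was at 3238.6 and 3243.1 against 133.6, 50.8, 147.6 and 61.1 and rose by 5.08 ± 0.61. Dcn, the proteoglycan decorin, was at 4204.6 and 4263.4 against 243.5, 57.4, 1517.5 and 184.1, with day 8 batch 1 high among the sorted arrays, and rose by 4.02 ± 0.77, though its dimmest passing probe set gave -0.17. Among fibrillar collagens, Col3a1 was at 7161.7 and 7496.2 against 4769.4, 1018.3, 6211.0 and 3616.7 and was not called (1.18 ± 1.45), and Col1a2, at 1.83 ± 0.74, passed with batch as a block (adjusted p = 0.0129) but not without it (0.0605). Postn, periostin of fibroblasts, overlapped, at 1746.4 and 1673.8 against 3490.9, 1283.2, 4703.2 and 2569.8. Both genes called lower, Twist2 and Fbln1, lost their calls without either cardiomyocyte array, without day 7 batch 1 or without day 8 batch 1, with adjusted p from 0.0596 to 0.188.

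Epicardial genes, which mark the outer layer of the heart, were called higher in 7 of 8, with a median of 3.83 (3.36 and 3.86 against batches 1 and 2). Gpm6a, a membrane glycoprotein also known from neurons, was at 905.6 and 906.6 against 16.7, 13.7, 8.6 and 6.0 and rose by 5.70 ± 0.39. Upk3b, a plaque protein of mesothelium, was at 2120.2 and 2171.9 against 150.6, 43.0, 396.2 and 86.1, with both batch 1 arrays above the batch 2 arrays, and rose by 4.04 ± 0.66. Msln, mesothelin, rose by 3.89 and Wt1, the Wilms tumour factor of epicardium, by 2.08 ± 0.40, from 13.1, 21.3, 53.1 and 19.5 to 120.1 and 125.4. Tcf21, a factor of epicardium-derived fibroblasts, overlapped at 328.6 and 329.8 against 193.1, 115.2, 366.1 and 140.7 and was not called. In late GFP-positive cells Wt1 was at 3.0 to 7.5 and Upk3b at 13.9 to 18.9. The part of epicardial cells in the differences of other lists was not tested.

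Of 15 immediate early and heat shock genes, 4 were called higher (26.7%) and 6 lower (40.0%), where 20.3% and 25.9% of all genes were. The inducible heat shock genes Hspa1b and Hspa1a rose by 3.33 ± 0.66 and 3.20 ± 0.81, and since the copies are near-identical, their signals cannot be fully separated. Fos, an immediate early factor, was at 300.9 and 324.1 against 1632.1, 3521.8, 2302.2 and 2398.3 and fell by 2.90 ± 0.32, and Myc and Ier2 were called at -1.95 and -1.86. In the integrated stress list, 4 of 12 were called lower (33.3%) and 2 higher (16.7%), near the shares of all genes, with Trib3, a target of Atf4, at 78.8 and 82.9 against 439.9, 795.9, 299.8 and 623.6 and Asns, asparagine synthetase, at 1102.5 and 979.4 against 3068.3, 4133.0, 1616.5 and 3489.6. They fell by 2.55 ± 0.58 and 1.48 ± 0.27, and in both the batch 2 arrays were above the batch 1 array of the same day. The 2 called higher, Herpud1 and Hspa5, were 1 without cardiomyocyte array 1 or 2.

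Among 18 signalling ligands and antagonists, 8 were called higher (44.4%, against 20.3% of all genes tested), 3 lower (16.7%, against 25.9%) and 7 not called. Dkk3, a member of the Dickkopf family, was at 672.3 and 623.2 against 68.5, 35.1, 94.1 and 43.6 and rose by 3.37 ± 0.53. Nrg1, the neuregulin that signals to heart muscle, rose by 2.47 ± 0.37 and Bmp7, a bone morphogenetic protein, by 1.75 ± 0.31. Hey1, a Notch target of atrium and vessels, fell by 1.83 ± 0.36, and Dkk1, an inhibitor of WNT, was at 18.7 and 20.6 against 87.3, 91.1, 76.5 and 65.2 and fell by 1.71 ± 0.35. The count called higher was 5 without cardiomyocyte array 1, 4 without array 2 and 5 without day 7 batch 2. Of 11 imprinted genes, 1 was called: Igf2r, the receptor that clears insulin-like growth factor II, was at 3251.1 and 2958.1 against 462.2, 386.2, 691.3 and 376.9 and rose by 2.72 ± 0.54, and 2 were called higher without day 8 batch 1 and 1 lower without day 8 batch 2. Skeletal muscle genes were mostly under the floor, with 5 of 18 tested, 3 called higher and 1 lower. Myl1, a light chain of fast muscle and embryonic heart, rose by 1.96 ± 0.47, a call lost without cardiomyocyte array 1 (adjusted p = 0.0662). The count called higher was 0 without cardiomyocyte array 1 and 1 without array 2, day 7 batch 1 or day 8 batch 2, and none was called lower without either cardiomyocyte array or either batch 2 array.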

How the data were processed

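Total RNA of 18 samples was amplified in 2 rounds, labelled and hybridised to Affymetrix mouse arrays of 45101 probe sets, per the labels' protocols. Each deposited value is a probe set's linear signal intensity, which the authors obtained from MAS5 in GCOS 1.4, per the submitters' processing notes. The trimmed mean, with 2% left out at each end, was 150.0008 to 150.0012 on every array. No detection calls were used, so background is judged from the signal alone, and precision is limited by the small number of arrays.

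Probe sets for controls (64), without a symbol (9160) or with several (932) were left out. Each of 18193 genes was taken at its probe set with the highest mean. Probe sets with _x_at in their names were used only where a gene had no other. Of these genes, 13379 passed a floor of 22.5 units, the overall median, on 2 or more arrays and were tested. Log2(signal + 6.8), with the offset at the 25th percentile, was fitted with limma 3.58.1 in R 4.3.3 (variance trend) over 18 arrays in 9 groups with 9 residual degrees of freedom. The contrast was cardiomyocytes minus the mean of the day 7 and day 8 GFP-negative groups, with Benjamini-Hochberg adjustment over all genes tested. The script was tested on simulated data.

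Groups and batches came from the titles. The batch number pairs the sorted arrays, per the labels. Its differences correlated across genes at 0.378 between day 7 and day 8 GFP-negative cells, and at 0.033 and -0.032 between these and the cardiomyocytes, whose numbers are no batches. The members, the 32 gene lists and the tests were chosen with earlier results of these data known. Genes were named by rule: Myh6 and Nkx2-5, the 15 highest and 15 lowest called without overlap, up to 6 called members of a list by size with up to 3 of the opposite direction (or the 2 of lowest p), both forms of each isoform pair, the 10 largest differences of genes with a mean of at least 1000 units, and the cell type markers. Bag3, Fkbp1b, Ccne1, Rrm2, Ckm and the uncalled Tbx5, Gata6, Hand2, Mef2c, Isl1, Shox2 and Tbx3 were added after their values were seen. Promoters are RefSeq's (GRCm38.p6). Figures used matplotlib 3.10.9 under Python 3.11.15.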

Additional observations from a re-analysis of the deposited data

Results flagged for a closer look

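Among the 237 named genes tested, 10 had 1 of the 4 GFP-negative arrays apart from the rest by Dixon's criterion for 4 values. Chance meets this criterion in about 1 of 20 groups, so 10 genes are no more than chance would give. They are listed as a description only. On day 7, batch 1 stood high in Nkx2-5, at 105.5 units, and in L1td1, a gene of undifferentiated cells, at 73.6. On day 7, batch 2 stood low in Hbb-y at 3674.0, in Fcer1g, a receptor subunit of myeloid cells, at 46.7 and in Bmp7 at 42.1. On day 8, batch 1 stood low in Slc2a3 at 5040.5, in Birc5 at 1225.7 and in Mki67 at 2351.0. On day 8, batch 2 stood high in Kel, a blood group antigen of red cells, at 1370.2 and low in Crabp1, a retinoic acid binding protein, at 41.2. In each of these genes both cardiomyocyte arrays lay on one side of all 4 values. The same held in 8219 of the 13379 genes tested. Of the 237 named genes tested 208 were called, many of them named for that, so this adds no support.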

How the results depend on the processing

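The 24 alternatives gave 4192 to 7178 genes called, against 6176, and between 40.5% and 48.0% of calls were higher in cardiomyocytes, against 43.9%. Only the loss of a cardiomyocyte array moved the count of genes called higher, 2713, past 1.5 times, to 1778 and 1801 (1778 to 2850 over all single arrays left out), with the lone array assumed to vary like the other groups. With batch as a replicate block 6536 genes were called, and with the number as a block 6472. Among named genes the batch block changed the call of 10, given with each gene above, and of no other. Of 237 named genes tested, 208 were called, and 153 of these in all 24 alternatives.

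Called genes changed sign in 8 cases, all with the dimmest passing probe set of the gene: Dcn (-0.17), Fbln1 (0.0004), Hadhb (-0.43), Hspa5 (-0.033), Idh2 (-0.69), Mdm2 (-0.58), Ncam1 (-0.67) and Sfrp5 (0.75). With that choice the uncalled Col1a2 was at -0.13, Hk1 at 0.21 and Pax6 at 0.64. With the mean of all probe sets Cox8a was at 0.13, Hk1 at 0.029 and Slc25a5 at -0.0026. Other changes of sign were in uncalled genes. Cd68 was at -0.032 with an offset of 32, -0.015 after quantile normalization, -0.59 against day 8, -0.48 against batch 1 and between -0.35 and 0.37 with single arrays left out. Lyz2 was at 0.011 with an offset of 1, 0.0094 with equal array medians, 0.59 against day 7, 0.44 against batch 2 and between -0.35 and 0.34 with single arrays left out. Nanog was at 0.16 against batch 1 and between -0.75 and 0.070 with single arrays left out, Hk1 between -0.31 and 0.010 with single arrays left out, and Slc25a5 at -0.047 against day 7 and -0.064 against batch 2. Called genes that kept their direction and their call but moved by over 1.5 times with the dimmest passing probe set included Cemip (1.73), Col8a1 (2.64), Trdn (2.54), Synpo2l (2.68), Myl4 (1.19), Tbx18 (2.49), Kcne1 (1.59), Hopx (2.18), Gata4 (1.33), Myocd (1.38), Klf4 (0.97), Cpt1a (2.19), Slc2a3 (-1.53), Pdk1 (-0.95), Mcm5 (-1.15) and Epcam (-2.10). Atp2a2 moved likewise, to 1.74. The uncalled Acta2, Tnnt2 and Cox7a2 were called with that choice, at 2.94, 1.99 and 0.91 (limma, adjusted p = 1.33e-05, 5.27e-04 and 0.00678). The causes were not tested.

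Of 64 counts of list members, 36 stayed within 1.5 times in all alternatives. Ranges of the others, beside those given above, were 5 to 10 for ion channels called higher (9), 6 to 13 for pluripotency genes called lower (8), 2 to 10 for Hox genes called lower (6), 6 to 16 for endothelial genes called lower (11), 3 to 10 for macrophage genes called lower (7), 2 to 8 for cell cycle inhibitors called higher (6), 4 to 10 for signalling genes called higher (8) and 2 to 5 lower (3), 10 to 27 for the respiratory chain (22), 7 to 12 for the thick filament (11), 10 to 17 for fatty acid oxidation (16), 4 to 11 for endoderm called lower (8), 1 to 3 for receptors (3), 0 to 3 for skeletal muscle called higher (3), 0 to 3 for cardiac factors called lower (1), 0 to 2 for fibroblast genes called lower (2), 1 to 3 and 0 to 2 for imprinted genes called higher (1) and lower (0), 1 to 3 for cell cycle inhibitors called lower (2), 0 to 2 for stress response genes called higher (2), 0 to 2 for skeletal muscle genes called lower (1) and 0 to 2 for primitive streak genes called lower (0). In lists with a count of 0 or 1 the ranges were 0 to 1 for calcium, channel, chamber and fatty acid genes called lower and for intercalated disc genes and receptors called lower. Low signals limit what can be said of genes under the floor.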
